A study of Mus musculus with 2 samples.

Results

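The mitotic chromosome structure genes described here were Top2a, Mki67, Smc2, Smc4, Ncapd2, Ncapg, Ncaph, Hmgb2, Hmgb1 and Cenpa. They were taken by gene symbol from the 32285 genes that both deposited matrices list. All 10 were found, and all 10 had at least 20 CPM in one or both libraries, where CPM is a gene's UMI count scaled to a library of 1000000 UMIs. A UMI (unique molecular identifier) counts 1 captured transcript. The RO-3066 library held mouse hematopoietic stem cells kept in suspension for 48 h in the compound RO-3066, and the DMSO library held such cells kept for 48 h in dimethyl sulfoxide (DMSO), its vehicle. The labels give blood as the tissue, and state no strain, age, genotype, dose or target of the compound. Cdk1 is the known target of a compound with the similar name RO-3306, and the labels do not settle whether that compound was used. There was 1 library per treatment, so no difference has a replicate check, and the 95% intervals given cover counting error only.

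As a cell enters mitosis, its DNA is compacted into separate rod-shaped chromosomes. Topoisomerase II alpha, the product of Top2a, passes DNA strands through each other and so untangles sister chromatids. The condensin complexes extrude DNA loops: SMC2 and SMC4 form the ATPase core of every condensin, and the products of Ncapd2, Ncapg and Ncaph complete condensin I, which reaches the chromosomes once the nuclear envelope has opened. The Ki-67 protein, encoded by Mki67, coats the chromosome surface and keeps mitotic chromosomes apart. CENP-A, encoded by Cenpa, replaces histone H3 at centromeres and marks where the kinetochore forms. HMGB1 and HMGB2 are abundant DNA-bending proteins of chromatin, and Hmgb2 in particular is high in dividing cells. In stem cells of the blood these genes are best known as marks of cycling, since most such cells rest in the marrow.

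After filtering, the RO-3066 library had 3683 cells with a median of 34759 UMIs, and the DMSO library had 5833 cells with a median of 23950 UMIs, a ratio of 1.45. The sources used here do not say whether cells or sequencing set this gap, and its part in the results was not tested. The libraries shared 5 barcodes among kept cells, and leaving these out gave a median log2 ratio of the 10 genes of -0.176, against -0.175 with them. Stem cell markers were present in both libraries, with Kit at 101.8 CPM in RO-3066 and 68.9 CPM in DMSO, and Hlf at 72.2 and 61.2 CPM. Of the 7 that reached 20 CPM, 3 were lower in RO-3066: Cd34 at 54.7 CPM in RO-3066 and 69.0 CPM in DMSO, Hoxa9 at 27.1 and 35.1 CPM, and Ly6a at 14.1 and 20.8 CPM. Others among these markers were low, with Procr at 4.24 CPM in RO-3066 and 4.61 CPM in DMSO. The 6 megakaryocyte markers summed to 4752 CPM in RO-3066 and 5451 CPM in DMSO, nearly all of it Pf4, at 4237 and 5136 CPM. The other 5 were higher in RO-3066, among them Itga2b at 277.6 CPM in RO-3066 and 177.8 CPM in DMSO and Treml1 at 79.1 and 29.1 CPM. Among lymphoid markers, Cd3e, Il7r and Cd8a had 0 UMIs in both libraries. All 6 summed to 65.3 CPM in RO-3066 and 39.1 CPM in DMSO, nearly all of it Nkg7, at 65.2 and 39.0 CPM. The erythroid markers summed to 464 CPM in RO-3066 and 210 CPM in DMSO, mostly Hbb-bt. Neutrophil and monocyte markers summed to 70.0 CPM in RO-3066 and 44.2 CPM in DMSO, nearly all of it Lyz2, at 69.1 and 43.3 CPM. The others in that list were sparse, with Mpo at 0.134 CPM in RO-3066 and 0.533 CPM in DMSO and S100a8 at 0.574 and 0.137 CPM. Mast cell and basophil markers summed to 7.20 CPM in RO-3066 and 2.96 CPM in DMSO. Of these, Cpa3 was at 6.73 CPM in RO-3066 and 1.72 CPM in DMSO, and Mcpt8 at 0.257 and 1.07 CPM. Endothelial and stromal markers summed to 7.85 CPM in RO-3066 and 5.54 CPM in DMSO. Whether such other cell types were present, and their part in the results, was not tested.

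The first comparison asked whether cells kept in RO-3066 carried more or less RNA of these genes. With UMIs summed over cells, every one of the 10 genes was lower in the RO-3066 library relative to total RNA. The high mobility group gene Hmgb2 was furthest below its DMSO level. The median log2 ratio of the 10 genes, RO-3066 over DMSO, was -0.17. Over the 5765 genes that reached 20 CPM it was -0.06, and 58.0% of these were lower. Of the 10 genes, 1 was at least 1.5-fold lower, beside 2.27% of all genes compared, and 0 were at least 1.5-fold higher, beside 3.37%. Together the 10 genes took 4738 CPM in RO-3066 and 6259 CPM in DMSO. With every cell counted equally instead, the median log2 ratio was -0.00053 for the 10 genes and -0.021 for all genes.

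Hmgb2 stood at 1236 CPM in RO-3066 and 2023 CPM in DMSO, a ratio of 0.611 (0.608 to 0.614). With every cell counted equally it averaged 1482 CPM in RO-3066 cells and 1984 CPM in DMSO cells, which is less than 1.5-fold. The gene lies on chromosome 8 (57511907 to 57515999, mm10). Its relative Hmgb1, on chromosome 5 (149046702 to 149184489), reached 1959 CPM in RO-3066 and 2424 CPM in DMSO, a ratio of 0.808 (0.804 to 0.812). Hmgb1 has many processed copies in the mouse genome, so some of its reads may have been lost or shared in counting.

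Top2a, on chromosome 11 (98992943 to 99024189), reached 411.5 CPM in RO-3066 and 539.5 CPM in DMSO, a ratio of 0.763 (0.755 to 0.770). Mki67, on chromosome 7 (135689784 to 135716361), was closer between the libraries, at 299.7 CPM in RO-3066 and 348.1 CPM in DMSO (0.861, 0.851 to 0.871). The direction of Mki67 depended on the weighting of cells: with every cell counted equally it averaged 337 CPM in RO-3066 cells and 301 CPM in DMSO cells. Cenpa, on chromosome 5 (30666777 to 30674830), reached 214.1 CPM in RO-3066 and 234.1 CPM in DMSO (0.915, 0.902 to 0.928), and with equal weight 209.3 and 209.1 CPM.

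The condensin genes lay close together in their ratios, between 0.876 and 0.927. Among the core subunits, Smc2 (chromosome 4, 52439243 to 52488260) stood at 209.9 CPM in RO-3066 and 226.4 CPM in DMSO, and Smc4 (chromosome 3, 69004738 to 69034623) stood at 283.0 CPM in RO-3066 and 323.0 CPM in DMSO. The subunits found in condensin I alone were sparser. Ncapd2 (chromosome 6, 125168007 to 125191701) stood at 51.5 CPM in RO-3066 and 57.7 CPM in DMSO. Ncapg (chromosome 5, 45669919 to 45700546) stood at 47.3 CPM in RO-3066 and 52.8 CPM in DMSO, and Ncaph (chromosome 2, 127103809 to 127133954) stood at 26.6 and 29.7 CPM. Their 3 ratios, 0.893, 0.895 and 0.897, had overlapping intervals. With equal weight per cell the condensin genes came out nearly level: Smc4, for example, averaged 295 CPM in RO-3066 cells and 288 CPM in DMSO cells. Levels are 3' end counts, in which a transcript counts once whatever its length, and no order between genes is read from them.

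**Figure D1:**
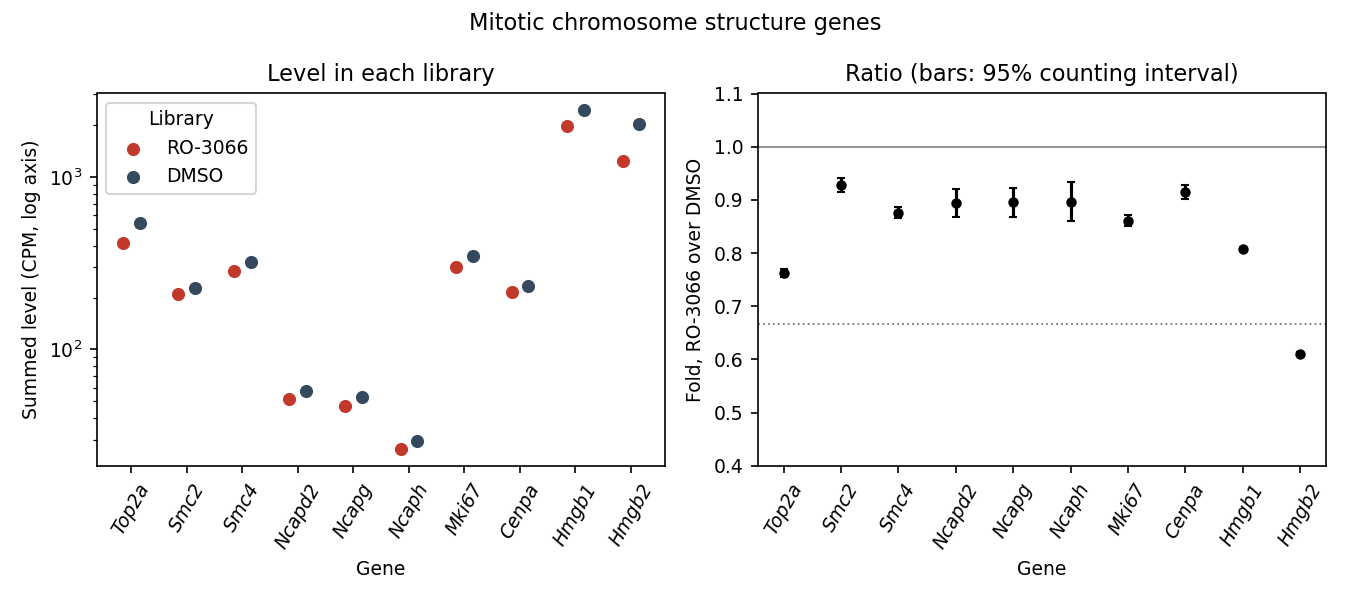
Left, the summed level of each gene in CPM (log axis), with RO-3066 and DMSO as separate points; right, the ratio of RO-3066 over DMSO with its 95% counting interval, the solid line at 1 and the dotted line at 1.5-fold lower. All 10 ratios lie below 1, and the ratio of Hmgb2, 0.611, is the only value below the dotted line.

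Counted as molecules per cell rather than as CPM, the order was the other way for all genes but Hmgb2. A RO-3066 cell held on average 18.3 UMIs of Top2a, and a DMSO cell 16.1. Smc2 averaged 9.33 UMIs per cell in RO-3066 and 6.78 in DMSO, a ratio of 1.38, and Cenpa 9.51 and 7.01. For Hmgb2 the means were 54.9 UMIs per cell in RO-3066 and 60.6 in DMSO, a ratio of 0.907. These means carry the gap in UMIs per cell between the libraries. Amounts per cell and shares of the RNA therefore gave opposite directions for 9 of the 10 genes.

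The spread over single cells was compared in cells thinned to 10000 UMIs each, which left out 124 RO-3066 and 84 DMSO cells with fewer and kept 3559 and 5749. At this depth Top2a was found in 92.3% of RO-3066 cells (91.4 to 93.2) and in 82.5% of DMSO cells (81.5 to 83.5). Its upper end was lower in RO-3066, with 9 UMIs at the 90th percentile of RO-3066 cells and 11 at that of DMSO cells. More than 11 UMIs were carried by 4.47% of RO-3066 cells (3.81 to 5.20) and 9.45% of DMSO cells (8.70 to 10.2). Cells without the transcript and cells with much of it both made up a smaller share of the RO-3066 library.

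Cenpa had the same shape. It was found in 78.7% of RO-3066 cells (77.3 to 80.0) and 66.5% of DMSO cells (65.3 to 67.8), yet more than 5 UMIs were held by 4.75% of RO-3066 cells (4.07 to 5.50) and 9.31% of DMSO cells (8.57 to 10.1). Mki67 differed from both, because its upper end was the higher in RO-3066: more than 7 UMIs were held by 11.5% of RO-3066 cells (10.5 to 12.6) and 8.82% of DMSO cells (8.10 to 9.58). It was found in 82.2% of RO-3066 cells and 77.9% of DMSO cells. Hmgb2 was found in nearly every cell, 99.8% in either library, but its most common count was 7 UMIs in RO-3066 cells and 19 UMIs in DMSO cells, with medians of 11 and 19. At the 99th percentile the libraries were close for Hmgb2, at 42 UMIs in RO-3066 and 43 in DMSO. Hmgb1 was found in all thinned cells of both libraries, with medians of 21 UMIs in RO-3066 and 24 in DMSO.

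**Figure D2:**
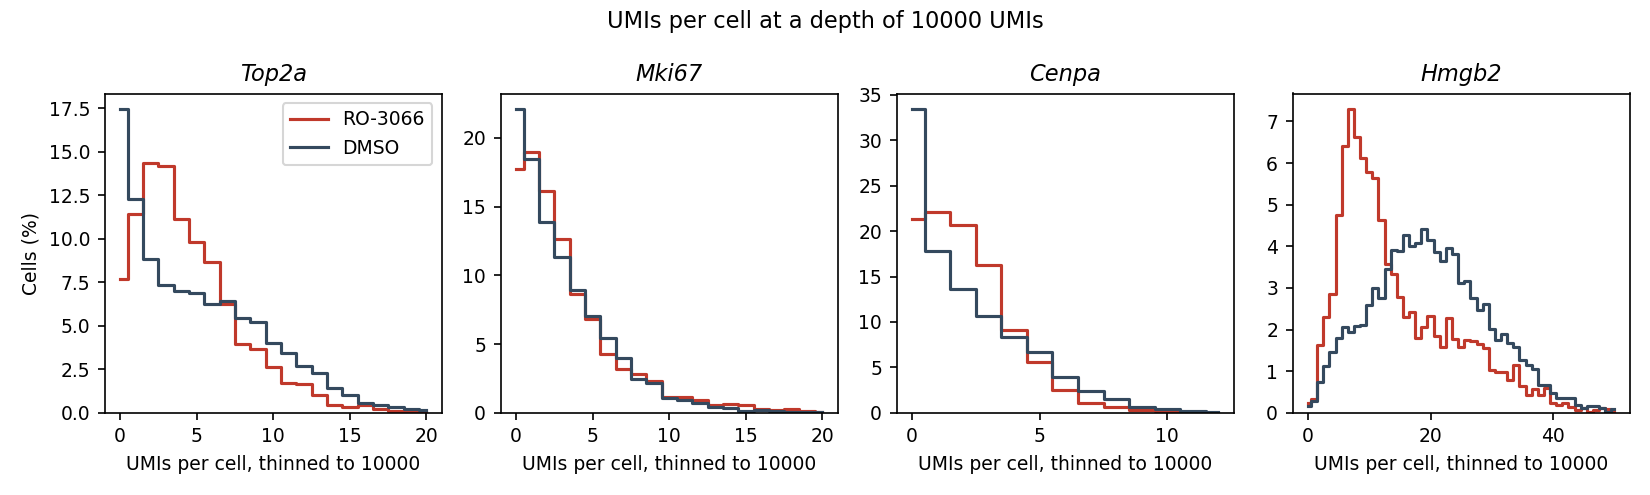
Share of cells (%) at each number of UMIs of Top2a, Mki67, Cenpa and Hmgb2 in cells thinned to 10000 UMIs, as lines for RO-3066 and DMSO. The RO-3066 line has fewer Top2a and Cenpa cells at 0 UMIs and at the upper end, and its Hmgb2 peak lies at 7 UMIs, below the DMSO peak at 19.

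Among the condensin genes, Smc2 and Smc4 were found in larger shares of thinned RO-3066 cells, by 4.27 and 4.70 points. The shares of the sparser Ncapd2, Ncapg and Ncaph were similar between the libraries. Smc2 was found in 84.5% of RO-3066 cells and 80.2% of DMSO cells, Smc4 in 91.2% and 86.5%, Ncapd2 in 39.5% and 40.5%, Ncapg in 35.5% and 35.9%, and Ncaph in 25.5% and 23.6%. Means of Ncapd2, Ncapg and Ncaph were under 1 UMI at this depth, so no change is read from their shares. Unthinned, Top2a was found in 96.9% of RO-3066 cells and 89.3% of DMSO cells, Mki67 in 93.6% and 87.1%, Cenpa in 89.2% and 77.5%, and Smc4 in 98.1% and 93.7%. The sparse Ncaph was then found in 60.2% of RO-3066 cells and 49.1% of DMSO cells. By 5 points or more, 0 of the 10 genes had a lower share in RO-3066, beside 15.1% of all genes compared, and 2, Top2a and Cenpa, had a higher one, beside 13.1%. With bins of other G2 and M genes at equal weight the difference was 4.81 points for Top2a and 4.03 points for Cenpa, so that neither reached 5 points. In cells of 15000 to 40000 UMIs it was 5.28 points for Top2a and 6.15 points for Cenpa, against 9.78 and 12.1 points over all thinned cells. Where the share was higher and the CPM lower, no order of the libraries is read from the share.

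A background for these shares came from the 100 cells of each library lowest in 91 other genes of S phase, G2 and M. Their median depth was 20955 UMIs in RO-3066 and 12672 UMIs in DMSO, against 35636 and 24105 over all thinned cells. In these cells Top2a was found in 26.0% (17.7 to 35.7) of the RO-3066 cells and 16.0% (9.43 to 24.7) of the DMSO cells. For Cenpa the shares were 32.0% (23.0 to 42.1) in RO-3066 and 22.0% (14.3 to 31.4) in DMSO, and for Mki67 18.0% (11 to 27.0) and 25% (16.9 to 34.7). All of these lay well below the shares over all cells. Hmgb1 was found in all 100 cells and Hmgb2 in 96 RO-3066 and 94 DMSO cells, so detection of the high mobility group genes does not separate cycling cells from others here. The part of free RNA in the droplets in these shares was not tested.

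Promoters of Top2a, Hmgb2, Cenpa and Hmgb1 are shown as examples, chosen with the levels of these genes known. Genes of G2 and M often share short elements near their start. Capitals mark the cell cycle genes homology region, TTTGAA, and the CCAAT box, CCAAT, as found on either strand, and no match overlaps another in the sequences shown. Each sequence is 300 bases, 250 before and 50 after the start, 5′ to 3′ on the gene's strand, from RefSeq on GRCm38.p6, the assembly called mm10. They are chr11:99024140-99024439 (minus strand) for Top2a, chr8:57511593-57511892 (plus strand) for Hmgb2, chr5:30666636-30666935 (plus strand) for Cenpa, and chr5:149053008-149053307 (minus strand) for the first of 2 starts of Hmgb1.
Top2a: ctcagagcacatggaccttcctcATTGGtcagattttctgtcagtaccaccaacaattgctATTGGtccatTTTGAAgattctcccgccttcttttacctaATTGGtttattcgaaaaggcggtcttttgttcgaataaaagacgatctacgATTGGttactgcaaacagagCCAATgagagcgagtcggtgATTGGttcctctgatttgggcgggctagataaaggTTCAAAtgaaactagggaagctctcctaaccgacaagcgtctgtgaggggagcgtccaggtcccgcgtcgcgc
Hmgb2: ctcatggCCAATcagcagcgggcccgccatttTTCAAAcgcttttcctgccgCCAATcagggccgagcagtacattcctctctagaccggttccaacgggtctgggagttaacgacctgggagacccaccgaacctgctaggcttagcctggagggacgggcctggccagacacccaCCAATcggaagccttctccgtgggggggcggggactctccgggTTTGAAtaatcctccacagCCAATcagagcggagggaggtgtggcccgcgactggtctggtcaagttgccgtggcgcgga
Cenpa: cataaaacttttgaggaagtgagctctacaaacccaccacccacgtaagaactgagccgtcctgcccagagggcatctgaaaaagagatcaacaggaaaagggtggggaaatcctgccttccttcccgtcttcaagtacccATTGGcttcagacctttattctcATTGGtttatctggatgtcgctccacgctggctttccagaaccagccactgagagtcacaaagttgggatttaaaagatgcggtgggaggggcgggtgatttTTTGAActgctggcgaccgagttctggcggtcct
Hmgb1: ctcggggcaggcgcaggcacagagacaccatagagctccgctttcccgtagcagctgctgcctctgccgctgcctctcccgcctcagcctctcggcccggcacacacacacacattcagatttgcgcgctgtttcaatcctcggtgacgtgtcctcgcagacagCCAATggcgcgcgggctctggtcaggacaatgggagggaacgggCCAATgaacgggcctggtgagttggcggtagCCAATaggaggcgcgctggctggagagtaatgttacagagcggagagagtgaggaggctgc

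Top2a held 2 matches to TTTGAA and 6 to CCAAT, and Hmgb2 held 2 and 4. Cenpa held 1 match to TTTGAA, at position 17 after the start, and 2 to CCAAT. Hmgb1 held 3 matches to CCAAT and no TTTGAA at this start, and neither motif at its second start. Of the 10 genes, 9 had promoters in the table, 10 promoters in all. TTTGAA was found in 7 of these 10 promoters and in 17.9% of all 32851 promoters of the same length. CCAAT was found in 8 of them and in 37.4% of all. Mki67, Smc2, Ncapd2 and Ncapg each held both motifs, and Ncaph neither. A match describes letters in this window and no binding. Whether the number of matches went with the level of a gene or with the cell cycle was not tested.

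The next comparison set cells side by side in 5 bins of UMIs per cell. The end bins were not fully alike, with median UMIs of 14357 in RO-3066 and 16518.5 in DMSO in the lowest. In the highest they were 66344.5 and 69730. A like UMI number need not mean a like cell, since the source of the gap in UMIs between the libraries is not given. The bins were cut at the 25th, 50th, 75th and 90th percentile of DMSO cells, which are 19142, 23950, 31224 and 42933 UMIs. Across these bins the libraries differed in where the levels were highest. In DMSO, 9 of the 10 genes had their lowest CPM in the cells with fewest UMIs and their highest in the fourth bin, Hmgb1 being the exception. In RO-3066, 9 of the 10 had their highest CPM in the cells with fewest UMIs, Cenpa being the exception with its highest in the second bin. Cenpa was level between the lowest and the highest RO-3066 bin, at 226.4 and 226.5 CPM. Top2a, Smc2 and Ncapg had their lowest RO-3066 level in the third bin. Counts of genes by their highest or lowest bin have no share of all genes beside them and are not read as results about the 10 genes. All 10 genes were higher in RO-3066 than in DMSO in the lowest bin, 7 in the second, and 0 in the upper 3 bins. From the lowest to the highest bin, the median log2 ratio of the 10 genes was 0.909, 0.09, -0.356, -0.534 and -0.287. That over all genes compared was 0.048, -0.0061, -0.047, -0.067 and -0.108.

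Top2a showed the crossing. In RO-3066 its level was 646.7, 464.2, 365.5, 425.8 and 392.5 CPM from the lowest to the highest bin. In DMSO it was 220.1, 437.3, 664.2, 757.7 and 514.2 CPM. The ratio was therefore 2.94 (2.83 to 3.06) in the lowest bin and 0.550 (0.535 to 0.566) in the third. Mki67 had 492.1 CPM in RO-3066 and 141.3 CPM in DMSO in the lowest bin, a ratio of 3.48 (3.33 to 3.65) and the highest among the 10 genes. In the fourth bin Mki67 had 307.2 CPM in RO-3066 and 455.5 CPM in DMSO, a ratio of 0.674 (0.656 to 0.693).

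In RO-3066, Hmgb2 was lower in each higher bin, with 2489, 1754, 1339, 1320 and 1060 CPM, against 1529, 1975, 2290, 2388 and 1839 CPM in DMSO. The ratio of Cenpa was 1.41 (1.34 to 1.49) in the second bin, at 244.6 CPM in RO-3066 and 173.2 CPM in DMSO, and 0.50 (0.482 to 0.518) in the fourth, at 165.6 and 331.3 CPM. The condensin core gene Smc4 stood in the lowest bin at 353.7 CPM in RO-3066 and 171.2 CPM in DMSO, and in the fourth at 285.4 and 414.6 CPM. Hmgb1 moved least, with ratios between 0.781 and 1.12.

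**Figure D3:**
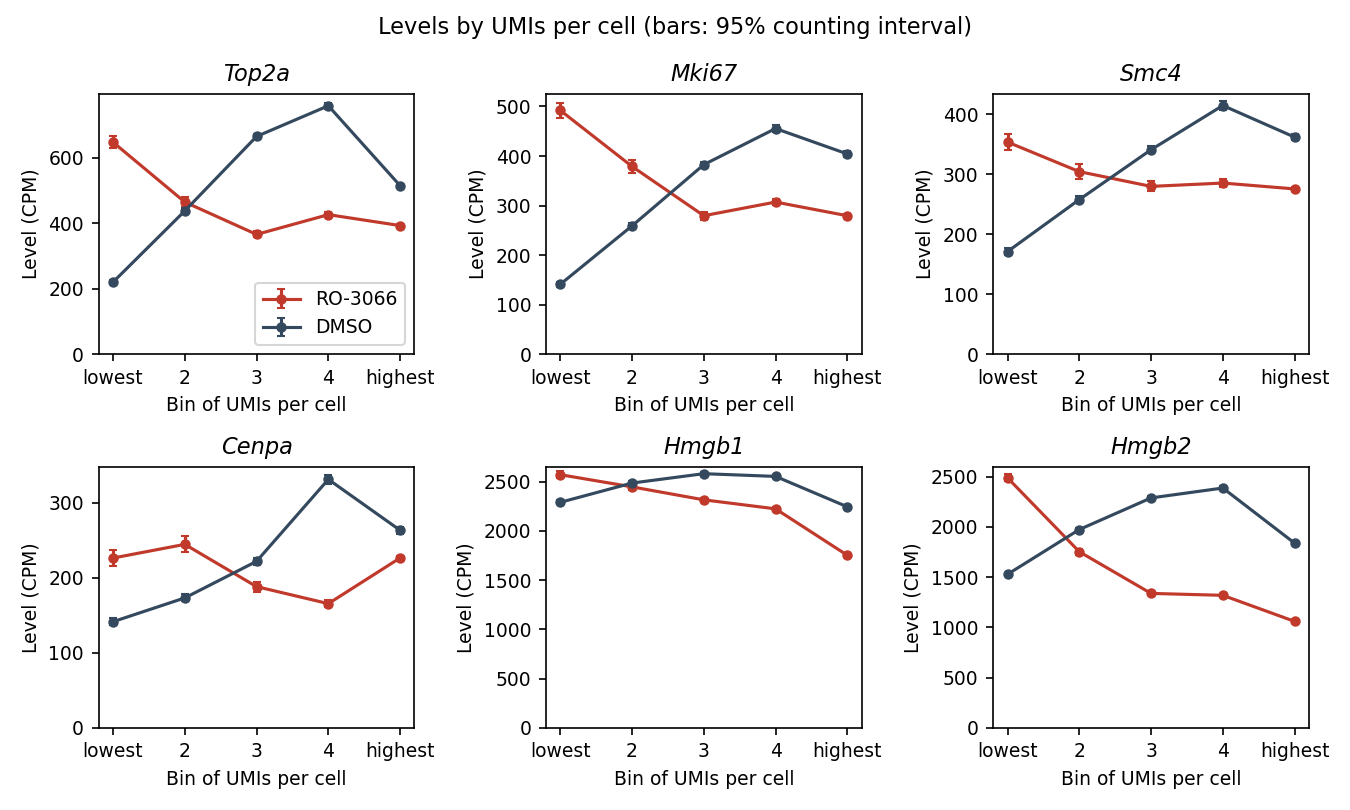
Level in CPM of 6 of the genes in RO-3066 and DMSO, in 5 bins of UMIs per cell from lowest to highest, with 95% counting intervals as bars. In DMSO the levels climb to the fourth bin, or for Hmgb1 to the third, while in RO-3066 they are highest in the lowest bin, or for Cenpa in the second.

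Of the 10 genes, 9 were at least 1.5-fold higher in RO-3066 in the lowest bin, beside 7.23% of all genes compared there. At least 1.5-fold lower were 3 in the third bin (beside 3.96%), 3 in the fourth (beside 5.19%) and 1 in the highest (beside 5.19%). Other genes of G2 and M moved with them: of 46 measured, 38 were at least 1.5-fold higher in the lowest bin, with a median log2 ratio of 1.16. In the fourth bin 30 of 46 were at least 1.5-fold lower, and their median log2 ratio was -0.78. S phase genes did not follow, with medians of -0.16 in the lowest bin and 0.46 in the fourth. The crossing was thus shared by these other G2 and M genes. The share of cells in each bin differed between the libraries, the lowest bin holding 16.6% of RO-3066 and 25% of DMSO cells and the highest 37.5% and 10.0%. Median mitochondrial shares of UMIs in the lowest bin were 1.68% in RO-3066 and 1.45% in DMSO, and the part of RNA quality was not tested.

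Shares of positive cells followed the levels in the lowest bin, where share and CPM had the same direction. Top2a was found in 90.6% (87.6 to 93.0) of thinned RO-3066 cells and 59.4% (56.7 to 62.0) of thinned DMSO cells there. Mki67 was found in 85.2% (81.8 to 88.3) and 52.8% (50.2 to 55.5), and Cenpa in 77.7% (73.7 to 81.3) and 48.0% (45.3 to 50.6). In the fourth bin the order was reversed for Cenpa, with 71.1% (67.6 to 74.4) in RO-3066 and 87.8% (85.4 to 89.9) in DMSO. Mki67 had 83.5% in RO-3066 and 93.5% in DMSO in that bin.

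Pf4, which encodes platelet factor 4 and marks the megakaryocyte lineage, was used to order cells in the same way, by its share of a cell's UMIs. The DMSO percentiles that cut these bins were 0.0212%, 0.0560%, 0.271% and 0.816%. For each of the 10 genes the ratio of RO-3066 over DMSO was lower in the highest Pf4 bin than in the lowest. Their median log2 ratio was -0.071 in the lowest bin and -0.392 in the highest, against -0.015 and -0.107 over all genes compared. Over the 5 bins the ratio of Ncaph lay between 0.792 and 0.943, and that of Ncapd2 between 0.809 and 0.943. The ratio of Hmgb2 was 0.755, 0.683, 0.603, 0.493 and 0.484 from the lowest to the highest Pf4 bin. In the highest bin Hmgb2 had 889 CPM in RO-3066 and 1837 CPM in DMSO. Mki67 had 348.3 CPM in RO-3066 and 321.7 CPM in DMSO in the lowest Pf4 bin, a ratio of 1.08 (1.06 to 1.11), and 233.2 and 397.5 CPM in the highest, a ratio of 0.587 (0.571 to 0.603). For Top2a the highest bin had 319.0 CPM in RO-3066 and 514.2 CPM in DMSO, a ratio of 0.620 (0.606 to 0.635).

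In the lowest Pf4 bin 0 of the 10 genes were at least 1.5-fold lower, beside 1.6% of all genes compared, and in the highest 3 were, Top2a, Mki67 and Hmgb2, beside 6.38%. Smc2 and Ncapg varied least with Pf4, their ratios staying between 0.858 and 0.975 in all 5 bins. Within the RO-3066 library, Hmgb1 had 1487 CPM in the cells highest in Pf4 and 2402 CPM in those lowest in Pf4. Cenpa had 224.0 CPM in the RO-3066 cells highest in Pf4 and 198.0 CPM in those lowest. In DMSO, Mki67, Smc2 and Smc4 were highest in the cells with most Pf4, with Mki67 at 397.5 CPM there and 321.7 CPM in the cells with least. Among DMSO cells of 20000 to 40000 UMIs this was not seen. The CPM of their highest Pf4 bin over the lowest was 0.863 for Mki67, 0.985 for Smc2 and 0.964 for Smc4.

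**Figure D4:**
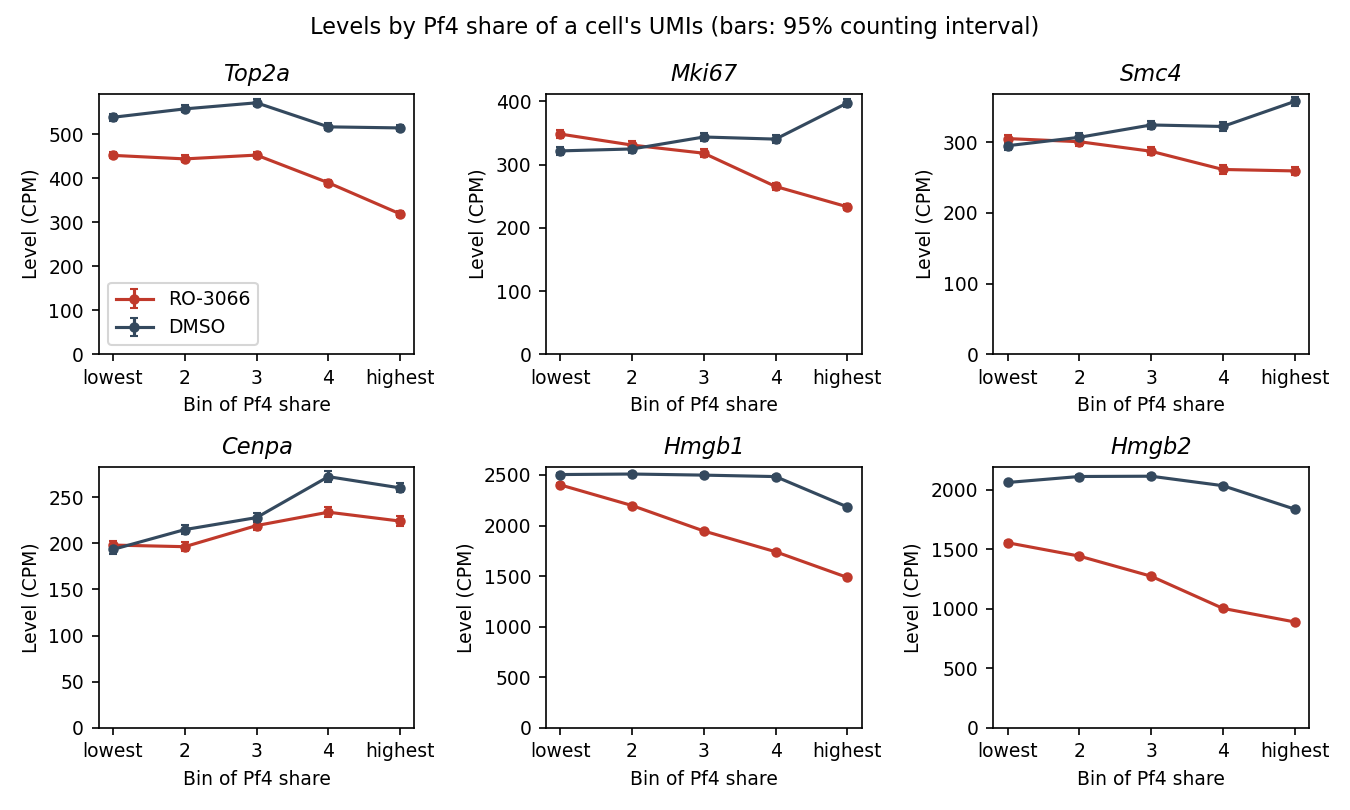
Level in CPM of 6 of the genes in RO-3066 and DMSO, in 5 bins of the share of a cell's UMIs from Pf4, from lowest to highest, with 95% counting intervals as bars. For Mki67 the RO-3066 level is the higher in the lowest bin (ratio 1.08) and the lower in the highest (0.587), while Cenpa stays within a ratio of 0.859 to 1.02.

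Pf4 and UMIs per cell moved together in both libraries, with a Spearman rho across cells of 0.65 in RO-3066 and 0.41 in DMSO. Cells of the highest Pf4 bin had a median of 89189 UMIs in RO-3066 and 53337 UMIs in DMSO. When cells of 20000 to 40000 UMIs alone were compared, the lower ratio with more Pf4 was not seen for Hmgb2, whose ratios were 0.601, 0.597, 0.626, 0.754 and 0.705. Mki67 was then lower in RO-3066 in the cells with least Pf4 (0.768, 0.743 to 0.793) and higher in those with most (1.22, 1.04 to 1.42), against the order over all cells. The upper pair of Pf4 bins in this range held 34 and 15 RO-3066 cells, so these ratios rest on few cells. Of the 10 genes only Hmgb1 had a lower ratio in every successive Pf4 bin here, its ratio being 0.941 in the lowest Pf4 bin of this range and 0.698 in the highest.

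Cells were also ordered by genes of the cell cycle that are not among the 10. In bins of the mean log level of 48 other G2 and M genes, the 10 genes had their highest CPM in the highest bin in both libraries. Top2a had 884.9 CPM in RO-3066 and 988.4 CPM in DMSO in that bin, and 173.7 and 154.6 CPM in the lowest. Hmgb2 differed most in the middle of this order. It had 908 CPM in RO-3066 and 1688 CPM in DMSO in the second bin, a ratio of 0.538 (0.532 to 0.544), but 2675 and 2806 CPM in the highest bin, a ratio of 0.953. Mki67 was higher in RO-3066 in the highest bin, at 846.5 CPM against 633.8 CPM in DMSO (1.34, 1.29 to 1.39). Hmgb2 was the only gene of the 10 at least 1.5-fold lower in the second bin (beside 5.09%) and in the third (beside 2.59%). The second bin held 32.9% of RO-3066 and 25% of DMSO cells, and the third 41.1% and 25%.

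Ordered by 43 S phase genes, the libraries again differed in where the levels were highest. Of the 10 genes, 8 had their highest CPM in the lowest bin in DMSO, and 8 their lowest CPM there in RO-3066. No share of all genes stands beside these counts by bin, so they are not read as results about the 10 genes. In cells lowest in S phase genes, Top2a had 345.9 CPM in RO-3066 and 682.7 CPM in DMSO, a ratio of 0.507 (0.493 to 0.520), and Mki67 had 211.5 and 428.9 CPM, a ratio of 0.493 (0.477 to 0.510). In the fourth bin Mki67 had 370.4 CPM in RO-3066 and 219.7 CPM in DMSO, a ratio of 1.69 (1.62 to 1.76). Of the 10 genes, 7 were at least 1.5-fold lower in the lowest bin, beside 5.77% of all genes compared, and 2, Mki67 and Cenpa, at least 1.5-fold higher in the fourth, beside 3.69%. Beyond the second bin Cenpa was lower toward the S phase end in both libraries, with 45.6 CPM in RO-3066 and 61.4 CPM in DMSO in the highest bin. The other G2 and M genes moved likewise, 31 of 46 being at least 1.5-fold lower in the lowest bin.

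**Figure D5:**
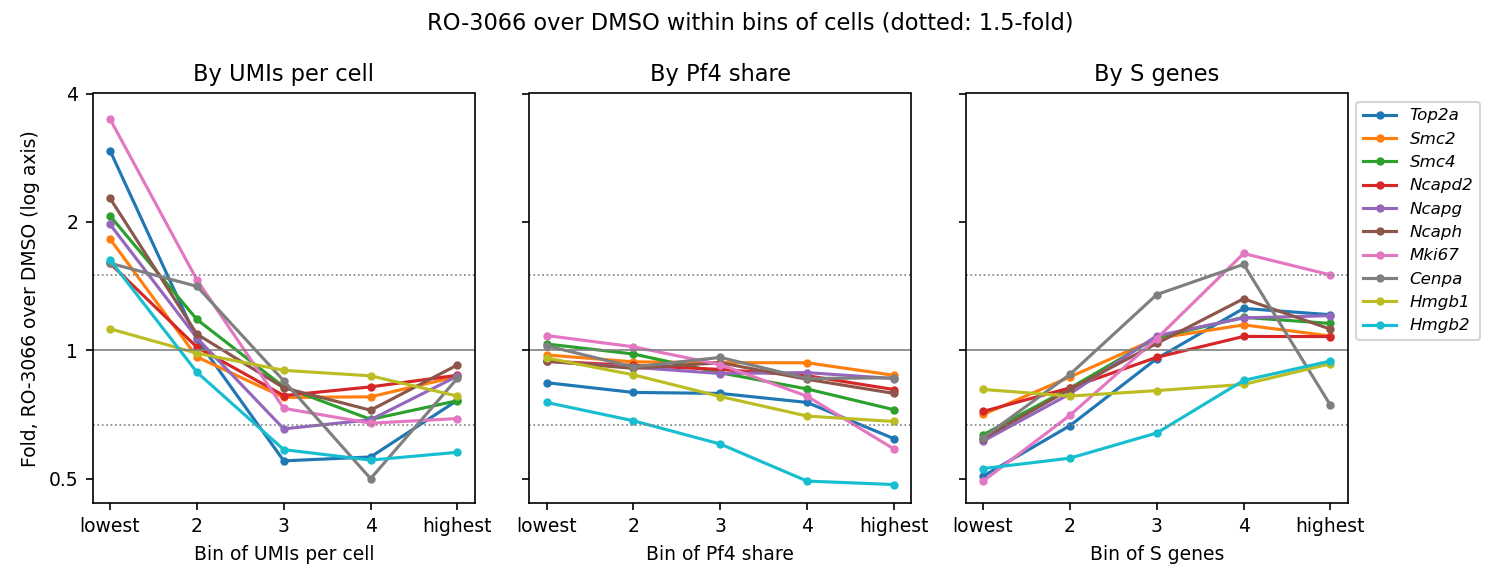
Ratio of RO-3066 over DMSO (log axis) of the 10 genes in bins of UMIs per cell, of Pf4 share and of S phase genes, each line a gene, with the dotted lines at 1.5-fold. With UMIs per cell the ratios drop from between 1.12 and 3.48 in the lowest bin to below 1 in the third. With Pf4 share each is lower in the highest bin than in the lowest, and with S phase genes most climb.

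Among the genes themselves, the strongest relations across thinned RO-3066 cells joined Top2a, Mki67 and Hmgb2. These correlations describe cells of 1 library that share depth and free RNA. Pearson's r between Top2a and Mki67 was 0.53 over 3559 RO-3066 cells and 0.59 over 5749 DMSO cells, and that between Top2a and Hmgb2 was 0.50 and 0.45. The relation of Hmgb2 with Cenpa differed most between the libraries, with r of 0.20 in RO-3066 and 0.55 in DMSO. Top2a and Smc4 had r of 0.31 in RO-3066 and 0.54 in DMSO. Relations among the sparse genes Ncapd2, Ncapg and Ncaph were 0.10 or below and are not read.

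Top2a and Hmgb2 were related to UMIs per cell with opposite sign in the libraries. The Spearman rho of Top2a with UMIs per cell was -0.13 in RO-3066 and 0.44 in DMSO, and that of Hmgb2 was -0.40 and 0.29, both at the thinned depth. In RO-3066 the rho was near 0 for Smc2 (-0.028), Ncapg (0.0098) and Cenpa (0.049), against 0.29, 0.19 and 0.31 in DMSO. Of the 10 genes, only Ncapg and Cenpa had the same sign in both libraries. Of 5232 other genes with at least 20 CPM in both libraries, those most like the mean of the 10 were H2afx, Nusap1, Prc1, Tubb4b and Tubb5, with r from 0.51 to 0.55 in RO-3066 and from 0.55 to 0.67 in DMSO. For Top2a alone all 5 were histone genes, led by the linker histone gene Hist1h1b (r of 0.55 in RO-3066 and 0.62 in DMSO). Hist1h1b was at 414.7 CPM in RO-3066 and 1413 CPM in DMSO. For Cenpa they were Ube2c, Cenpf, Arl6ip1, Cks2 and Ube2s, with Ube2c, a ubiquitin-conjugating enzyme of the anaphase-promoting complex, at r of 0.48 in RO-3066 and 0.57 in DMSO. For Hmgb2 they were Tubb4b, Tuba1b, H2afx, Nusap1 and Tubb5.

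Related gene groups gave a frame for these values. Over all 5765 genes compared, 58.0% were lower, 2.27% at least 1.5-fold lower and 3.37% at least 1.5-fold higher. At these shares few genes of such short lists would pass, so counts of 0 to 2 are not read as results. The 3 genes of condensin II, the complex that is in the nucleus throughout the cycle, lay near condensin I: Ncapd3 had 65.8 CPM in RO-3066 and 74.8 CPM in DMSO (0.880), Ncapg2 43.3 and 47.0 CPM (0.921), and Ncaph2 47.2 and 42.8 CPM (1.1). Of 16 cohesin genes measured, 0 passed 1.5-fold either way, with a median log2 ratio of 0.01. Sgo1, which protects cohesin at centromeres, was at 51.7 CPM in RO-3066 and 62.8 CPM in DMSO. Among 15 genes of the centromere and of CENP-A loading, 2 were at least 1.5-fold higher and 0 lower. These were Cenph, a subunit of the inner kinetochore, at 91.3 CPM in RO-3066 and 58.4 CPM in DMSO, and Cenpt, at 20.2 and 13.1 CPM. Cenpw, whose product pairs with that of Cenpt, was lower at 144.2 CPM in RO-3066 and 205.6 CPM in DMSO (0.701).

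Of 12 kinetochore genes 0 passed 1.5-fold, and 11 were lower, beside 58.0% of all genes compared, with a median of -0.24. Spc25, a subunit of the Ndc80 complex, had 53.8 CPM in RO-3066 and 78.2 CPM in DMSO. The other topoisomerase II gene, Top2b, which also serves cells that do not divide, had 147.9 CPM in RO-3066 and 171.3 CPM in DMSO (0.863), above the ratio of Top2a. Among 8 other HMG and chromatin protein genes 0 passed 1.5-fold and 7 were lower, with Hmgn2 at 276.7 CPM in RO-3066 and 375.2 CPM in DMSO (0.737). Chromosome periphery and chromokinesin genes had a median of -0.38, and 11 of 12 were lower without passing 1.5-fold, among them the chromokinesin gene Kif4 at 33.7 CPM in RO-3066 and 49.9 CPM in DMSO. Anp32e, which encodes a chaperone of the histone variant H2A.Z, had 237.7 CPM in RO-3066 and 356.3 CPM in DMSO. Of 45 other G2 and M genes 2, Hmmr and Pimreg, were at least 1.5-fold lower, beside 2.27% of all genes compared. All 45 had a median of -0.22. Of 41 S phase genes 1, Ccne2, was at least 1.5-fold lower, near that share, and all 41 had a median of 0.01.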

How the data were processed

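The authors deposited UMI counts per gene and barcode for 1 library per treatment. Per the labels the libraries were 10x Genomics 3' libraries. The submitters' processing notes name mm10 and Cell Ranger 5.0.1, while Cell Ranger 7.1.0 stands in the matrix headers. The annotation, and how strand and intron reads were treated, is not given in the sources used here. The 10 genes, the gene lists and the bins were chosen with earlier results of these data known. Genes named beyond the 10 follow a fixed rule: in each related list the 3 with the largest log2 ratio either way, of which examples are given, and the 5 most alike; marker genes named are examples.

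Barcodes were kept if they had no fewer than 1000 UMIs and 500 genes and no more than 10% mitochondrial UMIs, leaving out 84 RO-3066 and 26 DMSO barcodes. Likely doublets (the share of artificial doublets among 50 neighbours, 30 components of 2000 genes, called at 0.8% per 1000 barcodes) took out 115 RO-3066 and 301 DMSO cells. Kept cells held 163669329 RO-3066 and 174611991 DMSO UMIs. UMIs were summed over cells and scaled to CPM, and log2 ratios used a pseudocount of 1. Counts of genes used a fold of 1.5 among genes of at least 20 CPM in either library. Bin scores were mean log levels in thinned cells. Intervals are exact Poisson (ratios, conditional) and Clopper-Pearson (shares), at 95%. With 1 library per group nothing was tested. The log2 ratios, the 1.5-fold calls and the ratio intervals were tested on simulated summed counts with counting error only. Thinning, shares, bins, doublet calls and differences between libraries were not simulated. Gene positions are from GENCODE on mm10. Python 3.11.15, numpy 2.4.6, scipy 1.17.1, pandas 2.3.3 and scikit-learn 1.9.0 were used.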

Additional observations from a re-analysis of the deposited data

How the results depend on the processing

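The median log2 ratio of the 10 genes, -0.17, was below 0 under all 12 alternatives. It was -0.12 with median-ratio scaling (all genes 0), -0.00053 with every cell at the same weight (all genes -0.021), -0.033 in cells thinned to 10000 UMIs (all genes -0.026) and -0.077 with bins of other G2 and M genes at equal weight (all genes -0.033). With equal weight per cell the 10 genes thus did not lie below all genes, and in thinned cells they were nearly level with them. Under the last 3, and in cells of 15000 to 40000 UMIs, 0 genes were at least 1.5-fold lower, where Hmgb2 was the 1 over all kept cells; equal weighting of cells takes weight from cells with many UMIs. Hmgb2 stayed below 0 throughout (log2 -0.71 to -0.35), as did Top2a (-0.40 to -0.13) and Hmgb1 (-0.31 to -0.11). So did Ncapd2 (-0.17 to -0.0023) and Ncapg (-0.26 to -0.012), whose upper ends lay near 0. Mki67 ranged from -0.22 to 0.21, Smc2 from -0.16 to 0.024 and Smc4 from -0.19 to 0.035. Ncaph ranged from -0.16 to 0.081 and Cenpa from -0.21 to 0.0013. Keeping doublets or all barcodes, a mitochondrial limit of 5%, a pseudocount of 5, no minimum level and leaving out cells above the DMSO 90th percentile of Pf4 share did not change the count. Leaving out the 5 shared barcodes, chosen after seeing the data, did not either. No gene was at least 1.5-fold higher under any of these 12. The count of genes with a share of positive cells lower by 5 points was 0 under all 9 alternatives. The count with a share higher by 5 points, 2 over all thinned cells, was 0 with bins of other G2 and M genes at equal weight, 3 at 5000 UMIs, 4 without the cells highest in Pf4 and 7 without thinning. Shares of all genes passing were computed only over all thinned cells (15.1% lower, 13.1% higher). The counts under the alternatives are therefore not read as results about the 10 genes. The count without thinning carries the gap in UMIs per cell between the libraries. Over 10 genes and 5 bins, 33 values by UMIs and 46 by Pf4 share were lower in RO-3066, against 36 and 47 with limits from the pooled cells. The share of all genes lower in each bin is not given, so these counts of values are not read as results about the 10 genes. With the DMSO limits, the median log2 ratio over all genes was 0.048 in the lowest UMI bin and -0.108 in the highest. By Pf4 share it was -0.015 in the lowest bin and -0.107 in the highest. With the pooled limits 9 genes were at least 1.5-fold higher in the lowest UMI bin (6.66% of all genes). At least 1.5-fold lower were 4 in the third (4.44%), 1 in the fourth (4.94%) and 2 in the highest (5.2%). No paired analysis was possible because there was 1 library per treatment, and for the same reason no replicate could be left out.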
